A study of Drosophila melanogaster with 3 samples.

Results

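MicroRNA hairpin loci are the places in the genome from which the precursors of microRNAs are transcribed. They were taken as every annotated Drosophila melanogaster gene whose transcript is classed as a precursor microRNA on chromosomes 2L, 2R, 3L, 3R, 4 and X. Of 262 such hairpins, 260 lay on these 6 chromosomes, out of 17683 annotated genes there. Hairpins closer than 2000 bp to each other were merged, which left 206 loci. Of these, 180 held 1 hairpin and 26 held 2 or more, with 80 hairpins between them and at most 8 in a locus. The median hairpin was 92 bp long, with a range from 50 to 174 bp.

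The binding data are lists of peaks from chromatin immunoprecipitation and sequencing (ChIP-seq) of Ouib, also called CG11762, a zinc-finger transcription factor. All 3 samples were biological replicates of 1 group: whole prepupae, males and females pooled, of age given as unknown, from the strain CG11762-GFP, a transgenic line with GFP (eGFP in the sample descriptions) at the C-terminus of CG11762. Bound DNA was recovered with an antibody to GFP. The promoter that drives the fusion protein is not given in the sources used here; controls are not analysed here. The main list was the authors' optimal list of 5048 peaks, selected for reproducibility between replicates. Each replicate also had a relaxed list of 30000 peaks, background included, as did the pooled reads. With 1 group there was no contrast to test, so counts are set beside the same count for other features. Whole animals mix many tissues, and a binding site used in few cells cannot be told apart from weak binding in many.

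MicroRNAs are short RNAs that silence messenger RNAs by pairing mainly through their seed, the bases near the 5′ end. RNA polymerase II makes a long primary transcript that starts upstream of the hairpin, Drosha with Pasha cuts the hairpin out, and Dicer-1 cuts it to the mature form. Many hairpins lie inside introns or exons of longer genes and share their promoters. At the end of larval life the steroid hormone ecdysone switches on the let-7 complex, which helps to time the remodelling of the nervous system and muscles. Ouib is known as an activator of an ecdysone synthesis gene in the prothoracic gland, the source of that hormone.

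The mature microRNAs that the results below turn on are shown first, read from RefSeq annotation of the dm6 assembly, with the seed (bases 2 to 8) in capitals. All 260 hairpins could be matched to 481 mature sequences. The first 3 come from 1 primary transcript, miR-279 and miR-996 share a seed, and so do miR-2a-1, miR-2b-2 and miR-11.
let-7 5p: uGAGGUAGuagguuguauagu
miR-100 5p: aACCCGUAaauccgaacuugug
miR-125 5p: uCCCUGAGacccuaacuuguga
bantam 3p: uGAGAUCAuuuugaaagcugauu
miR-282 5p: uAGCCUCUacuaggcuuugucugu
miR-92a 3p: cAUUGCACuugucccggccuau
miR-279 3p: uGACUAGAuccacacucauuaa
miR-996 3p: uGACUAGAuuucaugcucgucu
miR-2a-1 3p: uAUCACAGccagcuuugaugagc
miR-2b-2 3p: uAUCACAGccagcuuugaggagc
miR-11 3p: cAUCACAGucugaguucuugc

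For 6 of the binding sites described below, the 101 bases centred on the summit are shown as the forward strand of dm6 from RefSeq, with the 11 bases at the summit in capitals. The first 3 are summits within 1000 bp of a hairpin and the other 3 are at starts of transcripts that span hairpins. None of the 5 motifs searched (below) was found in the 200 bp at any of these 6 summits.
mir-282, chr3L:3250239-3250339: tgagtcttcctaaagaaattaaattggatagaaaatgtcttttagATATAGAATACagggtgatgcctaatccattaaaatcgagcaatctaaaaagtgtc
bantam, chr3L:642631-642731: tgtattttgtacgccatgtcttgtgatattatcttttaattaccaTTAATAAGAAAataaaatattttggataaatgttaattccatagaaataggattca
mir-92a, chr3R:25646949-25647049: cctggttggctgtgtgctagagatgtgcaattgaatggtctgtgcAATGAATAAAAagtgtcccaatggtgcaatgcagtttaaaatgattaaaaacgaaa
start of lncRNA:let7C, chr2L:18456219-18456319: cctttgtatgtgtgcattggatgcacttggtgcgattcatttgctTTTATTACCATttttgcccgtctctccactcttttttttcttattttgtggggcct
start of lncRNA:CR31044, chr3R:29214386-29214486: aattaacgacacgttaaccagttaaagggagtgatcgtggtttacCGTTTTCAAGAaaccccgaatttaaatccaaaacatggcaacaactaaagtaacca
start of spi, chr2L:19575707-19575807: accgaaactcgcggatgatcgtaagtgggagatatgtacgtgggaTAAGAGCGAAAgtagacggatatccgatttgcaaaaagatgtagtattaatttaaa

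Ouib-GFP summits were about as frequent beside hairpins as along the chromosomes as a whole. An optimal summit lay within 1000 bp of 16 of 260 hairpins (6.15%), beside 6.66% of all bases of the 6 chromosomes. After merging, 15 of 206 loci (7.28%) had one. Starts of protein-coding genes had one more often, at 18.0% of 13945 genes by any annotated transcription start site (TSS). Starts of other noncoding RNA genes stood at 13.4%, small nucleolar RNA genes at 13.4%, transfer RNA genes at 10.3% and small nuclear RNA genes at 3.12%. The hairpin count is therefore near the level of the genome and below that of gene starts.

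Within 5000 bp the hairpins stood a little above all bases. A summit was there for 72 hairpins (27.7%) and 61 loci (29.6%), beside 24.0% of bases. Coding genes stood at 36.7%, and other noncoding RNA genes at 34.4%. Of the short RNA genes, 47.6% of small nucleolar, 38.6% of transfer and 9.38% of small nuclear RNA genes had one. The median distance to a summit was 11.3 kb for hairpins and 9.91 kb for loci. It was 8.66 kb for coding genes and 16.9 kb for all bases. The bases include long stretches far from any optimal summit. Within 1000000 bp of one lay 90.4% of bases, beside 99.0% of loci and 99.6% of coding genes. Such stretches lower the shares of all bases given here for the optimal list and lengthen their median distance. Shares without these stretches were not computed. No summit of the optimal list of 5048 peaks lay inside a hairpin or a merged locus. The pooled list of 30000 peaks had summits inside 5 hairpins and 7 loci. The share of bases inside hairpins was not computed, so these counts have no background beside them.

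**Figure D1:**
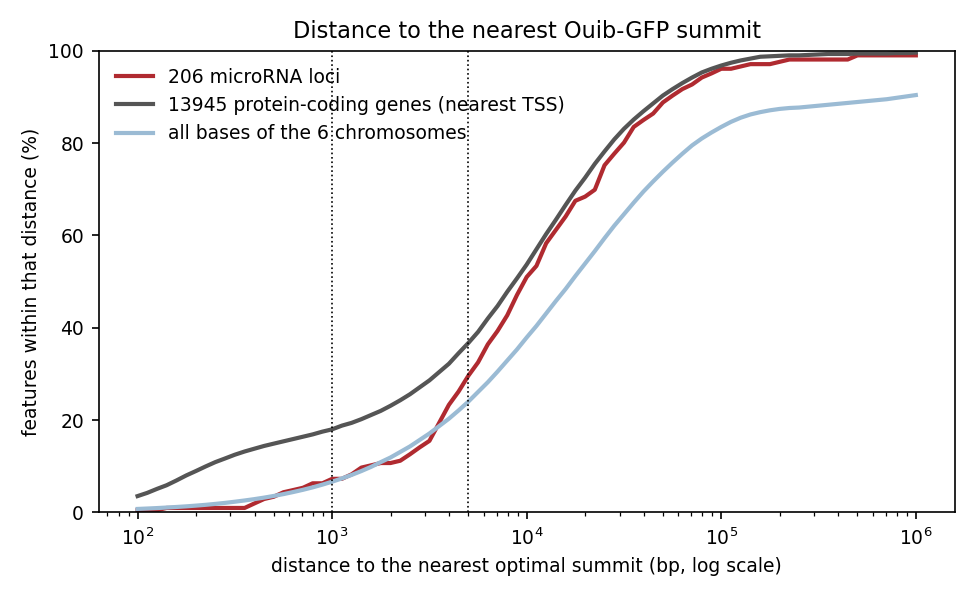
Share of features (%) within a given distance of the nearest optimal Ouib-GFP summit (bp, log scale), for 206 microRNA loci, 13945 protein-coding genes by their nearest TSS, and all bases, with dotted lines at 1000 and 5000 bp. The loci run with the bases at 1000 bp (7.28% and 6.66%) and lie between bases and coding genes at 5000 bp (29.6%, 24.0% and 36.7%).

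The 3 replicates gave similar shares when each was cut to its own 5048 peaks of highest signal. A summit lay within 1000 bp of 8.46%, 6.15% and 5.38% of hairpins in replicates 1, 2 and 3. Their mean of 6.67% ± 1.60 (SD, n = 3) covers the base shares of the same lists, which were 6.63%, 6.63% and 6.59%. Within 5000 bp the replicates had 31.5%, 29.2% and 28.5% of hairpins, a mean of 29.7% ± 1.60 (SD, n = 3), and each was above the base share of its list, at 24.0%, 24.0% and 23.7%. In the pooled list of 30000 peaks, 85 hairpins (32.7%) had a summit within 1000 bp beside 31.2% of bases. Within 5000 bp that list reached 203 hairpins (78.1%) beside 67.4% of bases. The relaxed lists of the replicates put 33.1%, 42.3% and 37.3% of hairpins within 1000 bp of a summit, beside 31.1%, 32.8% and 31.8% of bases. Within 5000 bp they reached 77.7%, 82.3% and 81.9% of hairpins, beside 67.5%, 72.3% and 69.8% of bases. Hairpins thus stood above bases in every replicate's relaxed list, by more in replicate 2 than in the others at 1000 bp. Merged loci, which count neighbours once, were closer together, at 36.4%, 41.3% and 37.4% within 1000 bp. Within 5000 bp they stood at 80.6%, 81.6% and 81.1%. How far stretches without peaks lower the base shares of the pooled and replicate lists was not computed.

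Of the 15 loci with an optimal summit within 1000 bp, 12 also had one among the best peaks of all 3 replicates. mir-308 had one in 2 replicates, mir-4985 in 1 and mir-4967 in none. Among the other loci, 9 had a best peak in 1 replicate and none had one in 2 or 3. At the other end, 13 of 206 loci had no peak within 5000 bp in any of the 5 lists, among them mir-31a, mir-210 and mir-1016. They also included mir-10404-3, mir-10404-4 and mir-10404-5 on chromosome X. The same count was not made for bases or genes, so it has no background beside it.

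The 15 loci are described in the order of the authors' signal at the optimal peak. For each replicate, the signal of the strongest peak within 1000 bp was divided by the median signal of that replicate's 5048 best peaks, so that a value of 1 is a typical peak. This relative signal had a median over the 15 loci of 1.21, 0.885 and 0.928 in replicates 1, 2 and 3, a mean of 1.01 ± 0.177 (SD, n = 3). These are middling peaks. The median signal at the 15 loci, by the strongest peak of each, was 98.9 beside 102 for all optimal peaks. Over all 17 summits within 1000 bp of a hairpin it was 86.9. None of the 15 was among the 500 strongest of the 5048 peaks, which with so few loci was not read as a difference.

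The strongest was at mir-282 (chr3L:3251022-3251118, plus strand), with a summit 733 bp upstream, outside coding genes, at rank 869 of 5048. Its relative signal was 1.45, 2.26 and 1.45 in replicates 1, 2 and 3. Replicate 2 stood above the other two, and all 3 were above the typical peak. mir-9377 (chrX:12665217-12665268), in an intron of Tis11, had its summit 367 bp downstream at rank 1117, with 1.28, 1.76 and 1.60. mir-92a (chr3R:25646506-25646600), a microRNA of neural stem cells, had its summit 399 bp downstream at rank 1292. That summit was 247 bp from a TSS of jigr1, the gene that holds mir-92a, and its relative signal was 1.42, 1.76 and 1.33. The 3 replicates of each of these loci were all above 1.

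mir-8 (chr2R:16831432-16831518), which promotes growth through the fat body, had its summit 933 bp upstream at rank 1348, with a relative signal of 1.73, 1.35 and 1.14. mir-2491 (chrX:22833440-22833583) had its summit 134 bp upstream in an intron, with 1.25, 1.06 and 1.25. mir-2496 (chrX:2010300-2010417) had 2 summits within 1000 bp, the stronger 735 bp upstream at the promoter of PIG-K, with 1.21, 1.29 and 0.978. From this locus downward at least 1 replicate fell below the typical peak at every locus. mir-4957 (chrX:15319954-15320037) had its summit 666 bp upstream at the promoter of Top1, the DNA topoisomerase I gene, with 1.26, 0.842 and 0.921.

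bantam (chr3L:642208-642288), which drives cell growth and blocks cell death, had its summit 393 bp downstream at rank 2611, with a relative signal of 0.969, 1.09 and 0.638. mir-4962 (chrX:3777382-3777505), in an intron of the kinase gene Tlk, had its summit 913 bp downstream, with 1.28, 0.850 and 0.720. mir-4968 (chr3L:11552539-11552693), in Mob2, had 2 summits within 1000 bp, the stronger 443 bp downstream, with 0.737, 0.885 and 1.16. The replicates of these 3 loci lay on both sides of the typical peak. mir-274 (chr3L:11656918-11657017) had its summit 533 bp upstream in an intron, with 0.731, 0.813 and 0.799. mir-308 (chr2R:14215802-14215864) had its summit 753 bp upstream, 10 bp from a TSS of its host RpS23, a ribosomal protein gene, with 0.602, 0.622 and 0.928. Both were below the typical peak in all 3 replicates. The last 3 loci were mir-275/mir-305 at 463 bp, mir-4985 at 583 bp, at the promoter of Fatp3, and mir-4967 at 52 bp in an intron of Pka-R2.

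**Figure D2:**
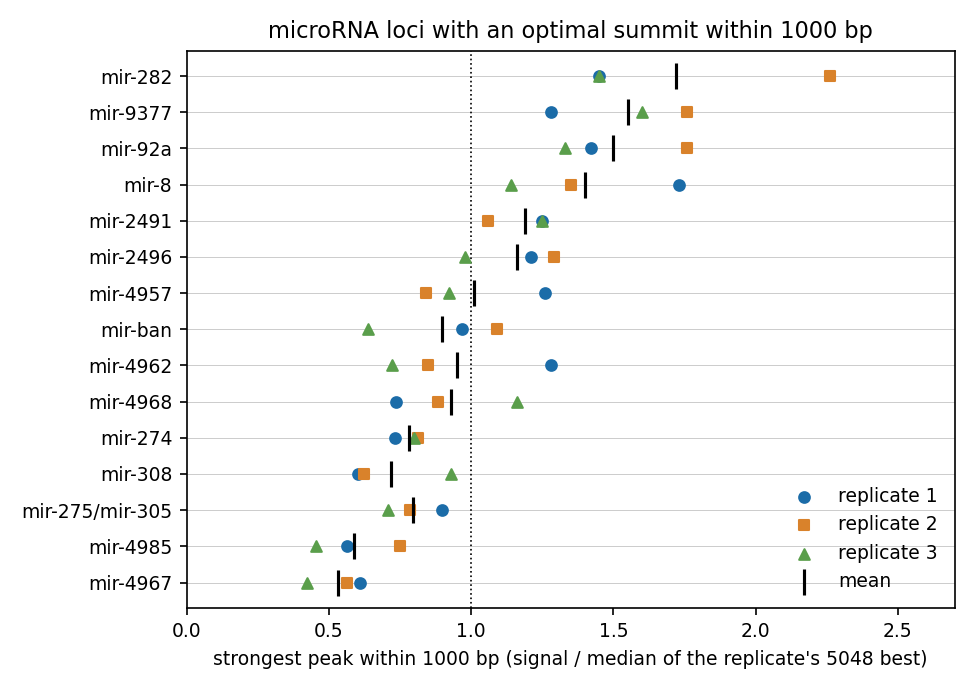
Relative signal (signal of the strongest peak within 1000 bp divided by the median of that replicate's 5048 best peaks) at the 15 loci with an optimal summit within 1000 bp, one symbol per replicate and a bar at the mean of 3; the dotted line is the typical peak. mir-282 is highest with a mean of 1.72 ± 0.467 (SD, n = 3) and mir-4967 lowest with 0.532 ± 0.0970.

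No locus lay between 933 and 1149 bp from a summit. Just inside 1000 bp were mir-308 at 753 bp, mir-4962 at 913 bp and mir-8 at 933 bp. Just outside were mir-279/mir-996 at 1149 bp, the mir-310 cluster at 1155 bp and mir-9379 at 1271 bp. The farthest loci from any optimal summit were mir-2279 at 3230.0 kb, mir-2490 at 1301.0 kb and mir-10404-5 at 467.0 kb.

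Clusters of hairpins had summits in a smaller share than single hairpins, but the clusters make few loci. Of 180 single hairpins, 14 (7.78%) had a summit within 1000 bp and 56 (31.1%) within 5000 bp. Of the 26 clusters, 1 (3.85%) and 5 (19.2%) had a summit in the 2 windows. They hold 80 hairpins, of which 2 (2.50%), both in the mir-275/mir-305 locus, and 16 did. The largest loci were the mir-309 cluster of 8 hairpins, which acts at the start of embryonic transcription, at 12.9 kb, and the mir-310 cluster of 7. Next came the mir-959 to mir-964 cluster of 6 at 17.0 kb and the mir-2499 to mir-977 cluster of 6 at 38.9 kb. The difference between clusters and single hairpins was not tested.

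Position relative to genes went with the count. Of 66 hairpins within 1000 bp of a coding TSS, 8 (12.1%) had a summit within 1000 bp, beside 13.9% of the bases so placed. Of the 194 farther away, 8 (4.12%) had one, beside 4.81%. Within 5000 bp the shares were 33.3% near a TSS, beside 35.6% of bases, and 25.8% farther away, beside 21.0%. Hairpins in introns on the strand of their gene had a summit in 8 of 100 cases, beside 8.18% of intronic bases, and within 5000 bp in 31.0% beside 26.5%. Those outside coding genes had one in 6 of 94 (6.38%), beside 5.41% of such bases, and within 5000 bp they had one in 27.7% beside 16.6%. Hairpins on the opposite strand of a coding gene had one in 2 of 30 (6.67%), and within 5000 bp in 5 (16.7%), the lowest of the 4 classes, with a median distance of 18529 bp. None of 36 hairpins in exons on the same strand had one, beside 5.72% of exonic bases, while 27.8% had one within 5000 bp beside 29.4%. None of 34 hairpins that span a whole intron had one either. Each class set beside bases had a share within 1000 bp near that of bases of its kind, apart from the exonic hairpins.

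The side of the nearest summit was read from the strand of the hairpin. Of the 15 loci with a summit within 1000 bp, 10 had it upstream and 5 downstream. Within 5000 bp the nearest summit was upstream of 41 of 61 loci (67.2%) and downstream of 20 (32.8%). The upstream share within 5000 bp was 67.4% for coding genes by their nearest TSS, 85.9% for small nucleolar RNA genes, 47.8% for starts of other noncoding RNA genes and 46.4% for transfer RNA genes. The loci were thus level with coding genes at 5000 bp. Within 1000 bp they stood at 66.7% upstream, below the 80.7% of coding genes and 83.3% of small nucleolar RNA genes. Starts of other noncoding RNA genes stood at 49.4% there and transfer RNA genes at 46.7%. No difference between these shares was tested. Of the 17 summits within 1000 bp, 7 were within 500 bp of a coding TSS, 6 in introns and 4 between genes. Of the 98 within 5000 bp, 38.8% were at promoters, 31.6% in introns and 28.6% between genes. All optimal summits were split as 33.6%, 44.6% and 20.6%.

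The sequence at these summits was described by GC content and by 5 motifs, searched on both strands in 200 bp at the summit. GC content was 37.3% ± 5.58 (SD over 17 summits) within 1000 bp of a hairpin, 35.6% for the 98 within 5000 bp and 34.4% for all optimal summits. TATAAAA, the TATA box form, was in 1 of the 17 windows and in 9.18% of the 98, beside 18.0% of all 5048. TATCGATA, the core of the element bound by DREF, was in none of the 17, in 3.06% of the 98 and in 1.43% of all. GGTCACAC, the Motif 1 core of housekeeping promoters, was in 1, in 2.04% of the 98 and in 1.03% of all. CACGTG, an E-box, was in 1, near mir-8, in 3.06% of the 98 and in 1.68% of all. GAGAGAG, a repeat bound by Trithorax-like, was in none, in 6.12% of the 98 and in 3.80% of all. Within 5000 bp, TATAAAA was thus less frequent than over all summits and the other 4 motifs more frequent, with 2 to 6 windows behind each of those 4. The window near mir-308 held both TATAAAA and GGTCACAC.

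MicroRNAs with known parts in ecdysone signalling and metamorphosis had a summit within 1000 bp in 3 of 10 cases, beside 6.15% of all hairpins. Within 5000 bp it was 5 of 10, beside 27.7%, and the median distance was 4471 bp beside 11.3 kb. The list was put together with earlier results of these data known, so its share is a description. mir-282, bantam and mir-8 were the 3 near ones. mir-965, which acts in the abdominal skin during metamorphosis, had its nearest summit 3.71 kb upstream. mir-14, which limits ecdysone receptor levels and fat stores, had its nearest 3.83 kb downstream.

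The let-7 complex had none within 5000 bp of its hairpins. The nearest summits were 5.77 kb upstream of mir-100, 5.43 kb downstream of let-7 and 5.12 kb downstream of mir-125. let-7 and mir-125 repress chinmo, a gene of developmental timing. mir-252 stood at 11.2 kb downstream and mir-34, which ecdysone represses, at 13.1 kb upstream. The 3 hairpins of the complex share a transcript, lncRNA:let7C, whose start is 15.7 kb upstream of mir-100.

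**Figure D3:**
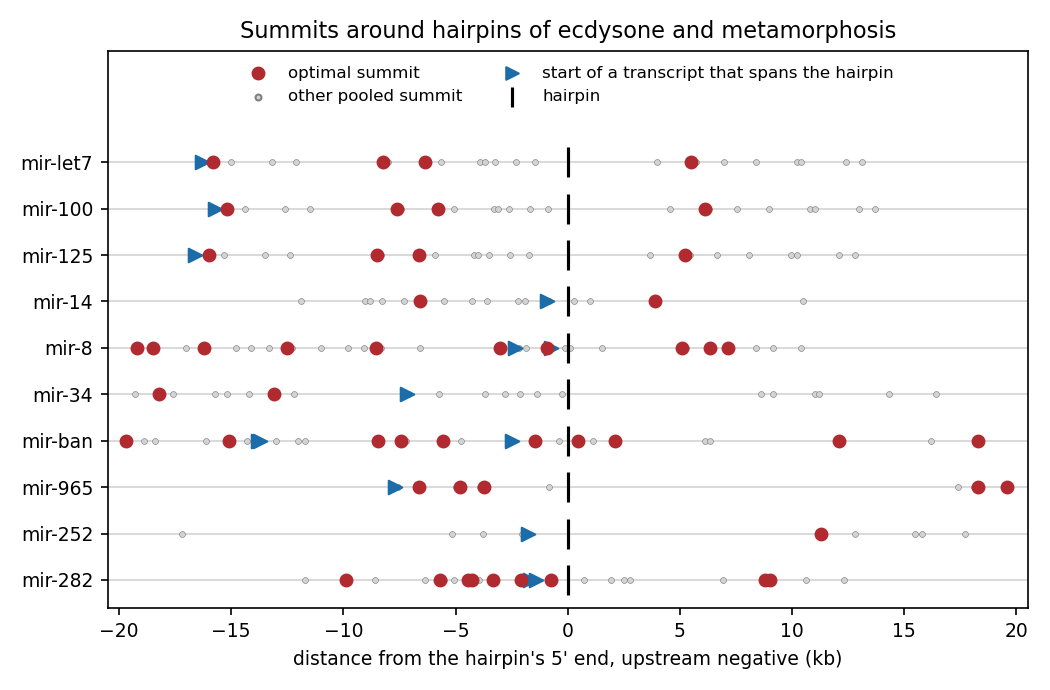
Summits around the 10 hairpins of the ecdysone and metamorphosis list, by distance from the hairpin's 5′ end (kb, upstream negative); red circles are optimal summits, small grey circles other pooled summits, triangles annotated starts of transcripts that span the hairpin. A red summit stands beside the start of the let-7 complex transcript, 15.2 kb upstream of mir-100, and mir-252 and mir-34 have no optimal summit within 10 kb.

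Other groups varied. The muscle, fat and metabolism list had 4 of 10 hairpins within 1000 bp (40.0%) and 6 within 5000 bp, with mir-92a at 399 bp and mir-275 at 463 bp nearest, the latter in 1 locus with mir-305. By locus it had 3 of 9 and 5 of 9. The lists overlap and are not independent groups. mir-8 is a near member of this list and of the ecdysone list, and bantam of the ecdysone and growth lists. The growth and cell death list had 2 of 18 (11.1%) and 7 of 18, with bantam nearest and then mir-308 at 753 bp. mir-92a and mir-92b, although known from neural stem cells too, were placed in the muscle list alone, and mir-92a is 1 of its 4 near members. In the nervous system list, which leaves out both, none of 14 lay within 1000 bp and 4 within 5000 bp, with mir-279 at 1149 bp and mir-996 at 2748 bp nearest. The Hox complexes had none of 4 within 1000 bp, with mir-10 at 2.78 kb and mir-993 at 13.2 kb.

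Testis clusters had none of 20 within 1000 bp and 2 within 5000 bp, which were the neighbours mir-991 at 2603 bp and mir-992 at 2717 bp. Mirtrons, which are whole introns that fold into hairpins and skip Drosha, had none of 15 within 1000 bp and 3 within 5000 bp, with mir-1004 at 2378 bp and mir-1006 at 3922 bp nearest. For all hairpins the shares were 6.15% and 27.7%.

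Grouped by seed, the 14 hairpins with AUCACAG, the K box family that represses cell death genes, fall in 7 loci. Of these 14, mir-308 had a summit within 1000 bp and 4 had one within 5000 bp, beside 6.15% and 27.7% of all hairpins. The 6 hairpins with AUUGCAC, the miR-92 seed, fall in 3 loci, and all 6 had a summit within 5000 bp. They share summits, since 4 of the 6 are in the mir-310 cluster.

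Because a hairpin can lie far from the start of its primary transcript, the starts of annotated transcripts that span a hairpin on its own strand were examined too. There were 128 such coding genes and 37 noncoding genes, called hosts here, and a hairpin can have more than 1. These starts were added after the peak lists had been examined. Of coding hosts, 32 of 128 (25.0%) had a start no more than 1000 bp from an optimal summit, beside 18.0% of all coding genes. Of noncoding hosts, 9 of 37 (24.3%) did, beside 13.4% of all noncoding RNA genes. In 26 of the 32 and 6 of the 9 the hairpins themselves were more than 1000 bp from any summit.

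Hosts and other genes were also compared by their number of annotated starts, counting for hosts only transcripts that span a hairpin. The median was 1 start in every class, and the mean was 1.94 for coding hosts beside 1.41 for all coding genes, and 1.54 for noncoding hosts beside 1.06. Among those with 1 start, 9 of 65 coding hosts (13.8%) had a summit beside 12.8% of all coding genes. With 2 or more starts the shares were 36.5% of 63 and 32.5%. Noncoding hosts with 1 start stood at 5 of 24 (20.8%) beside 13.0%, and those with 2 or more at 4 of 13 (30.8%) beside 21.7%. Hosts stood above the background in both classes, but the counts with a summit were small, at 9 and 23 coding and 5 and 4 noncoding hosts. Some hosts share a summit, and the differences were not tested.

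**Figure D4:**
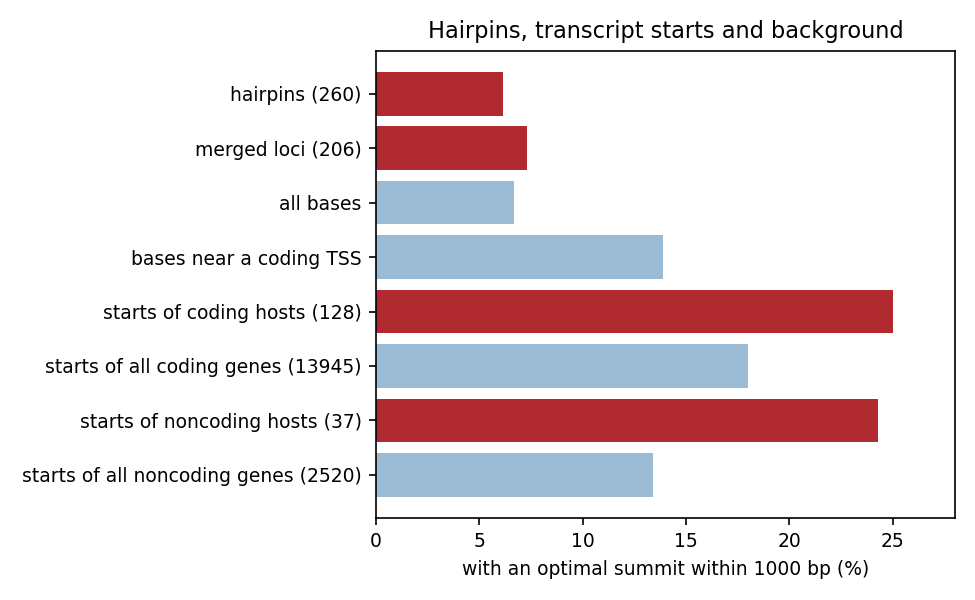
Share (%) with an optimal summit within 1000 bp for hairpins, merged loci and starts of host transcripts (red) and for background features (blue), with the number of features in brackets. Hairpins (6.15%) are level with all bases (6.66%), while starts of coding and noncoding hosts stand at 25.0% and 24.3%, beside 18.0% and 13.4% for all genes of those kinds.

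The strongest binding at a host start was at lncRNA:CR31044, the transcript of mir-279 and mir-996, which restrict the formation of carbon dioxide sensing neurons. Its summit lay 126 bp from the start at rank 27 of 5048, with a relative signal of 6.82, 6.96 and 8.31 in replicates 1, 2 and 3, a mean of 7.36 ± 0.824 (SD, n = 3). All 3 replicates had it among their 50 strongest peaks, at ranks 31, 34 and 16. lncRNA:CR43626, the transcript of mir-282, had 2 summits within 1000 bp of a start, the stronger at rank 124 and 406 bp away. The other is the summit already described 733 bp upstream of the hairpin. The stronger had a relative signal of 4.27, 4.05 and 4.19, a mean of 4.17 ± 0.112 (SD, n = 3). This was above that of the summit nearest the hairpin in every replicate.

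lncRNA:let7C had a summit 552 bp downstream of its start, at rank 411, although its hairpins were over 5000 bp from any. The relative signal there was 3.00, 2.60 and 2.36, a mean of 2.65 ± 0.320 (SD, n = 3), so that every replicate was above the typical peak. lncRNA:Hsromega, a heat-shock induced nuclear RNA that spans mir-4951, had 2.36 ± 0.373 at 279 bp. lncRNA:CR45916, the transcript of mir-9a, which protects sensory organ precursors, had 1.98 ± 0.360 at 710 bp. The other 4 noncoding hosts were lncRNA:CR43857 (mir-275), lncRNA:CR43650 (mir-8), lncRNA:CR46006 (mir-276a) and asRNA:CR46194 (mir-281-1 and mir-281-2), with means from 1.14 to 1.47. bantam's transcript fell just outside, with a summit of rank 383 at 1058 bp from one of its starts.

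Among coding hosts, 5 of 32 had a summit among the 500 strongest within 1000 bp of a start. CG5953, which spans mir-4943, had the highest relative signal, 3.10, 4.40 and 4.48, a mean of 3.99 ± 0.776 (SD, n = 3), with 2 summits near its start. MRP, an ABC transporter gene that spans mir-9382, had 2.75, 4.07 and 2.58. spi, the gene of the EGF receptor ligand Spitz, spans mir-2a-1, mir-2a-2 and mir-2b-2, and its summit 170 bp from a start had 3.03, 3.69 and 2.53. The other two were bun, a TSC22 family gene that spans mir-967, with 2.94 ± 0.162, and Atet, an ABC transporter gene that spans mir-1005, with 2.86 ± 0.475. All replicates of these 5 genes were above the typical peak.

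Further hosts with a near summit included genes of growth and lipid control. grp, the gene of the checkpoint kinase Chk1, spans the mir-9c, mir-306, mir-79 and mir-9b cluster and had 1.82, 2.98 and 3.78, with its replicates more than 2-fold apart. SREBP, the activator of lipid synthesis genes that holds mir-33, had 2.41, 2.21 and 2.35 at 609 bp. E2f1, the cell cycle factor that holds mir-11 and mir-998, had 0.876 ± 0.0390 at 374 bp, below the typical peak. Counted genes can share a summit: CG7029 with Usp12-46, CG45092 with chk, and Oda with asRNA:CR46194 did. The genes named as hosts were chosen after their values were seen.

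**Figure D5:**
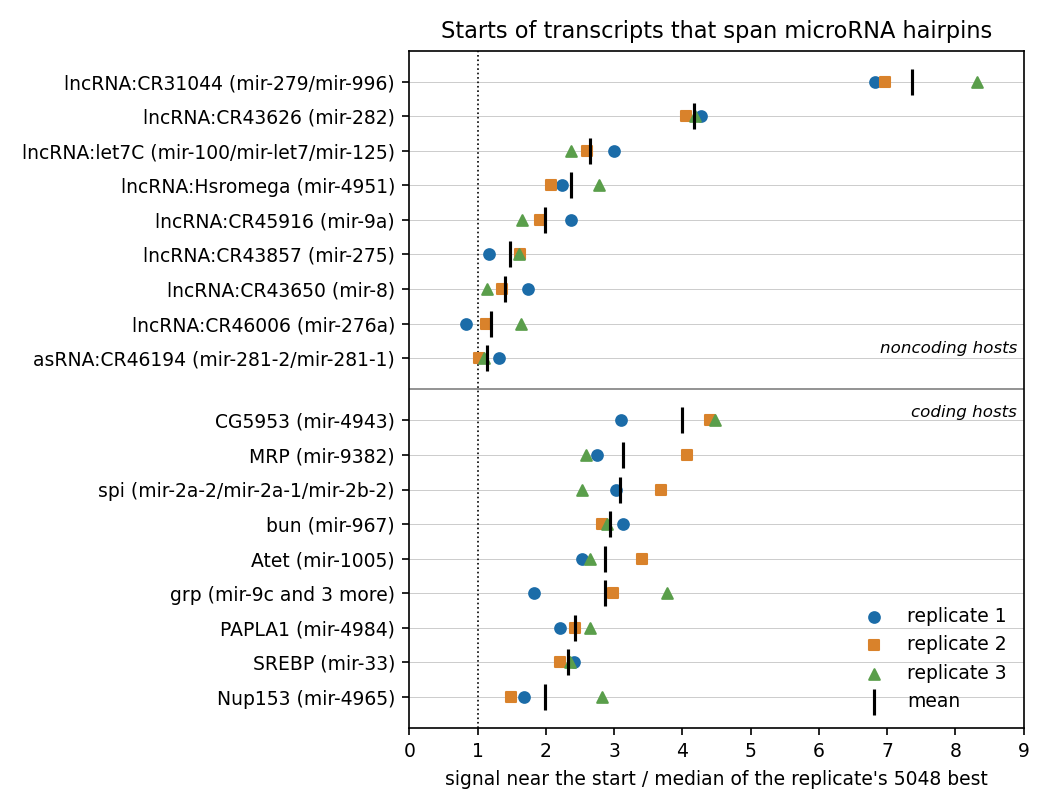
Relative signal (strongest peak within 1000 bp of a start, divided by the median of that replicate's 5048 best peaks) at the 9 noncoding hosts and the 9 coding hosts of highest mean among those with an optimal summit, hairpins in brackets, one symbol per replicate and a bar at the mean of 3. lncRNA:CR31044 stands apart at 7.36 ± 0.824 (SD, n = 3).

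Of 20 genes that make or use microRNAs and other small RNAs, 6 had a TSS no more than 1000 bp from an optimal summit. For all coding genes the share was 18.0%, or 12.8% of those with 1 start and 32.5% of those with 2 or more. Of the 6 genes, gw, AGO2, r2d2 and armi have 2 starts, pAbp 3 and Nbr 1. pasha and AGO1 have 3 each and no summit in the window. The 20 genes were not compared by number of starts. Within 5000 bp, 8 of the 20 had a summit, beside 36.7% of coding genes. gw, the GW182 partner of Argonaute in silencing, had a summit 58 bp from its TSS with a relative signal of 1.78 ± 0.0524 (SD, n = 3). AGO2, the Argonaute of small interfering RNAs, and r2d2, the partner of Dicer-2, had 1.63 ± 0.351 at 339 bp and 1.63 ± 0.236 at 147 bp. Nbr, which trims microRNA ends, had 0.803 ± 0.0350 at 358 bp. armi, a helicase of the piRNA pathway, had 1.18 ± 0.148 at 578 bp, and pAbp, which binds poly(A) tails, had 1.06 ± 0.324 at 478 bp. The core enzymes had none in the window: the nearest summits were 15.8 kb from drosha, 9.60 kb from Dcr-1 and 18.7 kb from AGO1. pasha had a strong summit, of rank 95, at 1.80 kb, and loqs, the partner of Dicer-1, had one at 3.92 kb.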

How the data were processed

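Chromatin immunoprecipitation with an antibody to GFP was done on 3 biological replicates of whole prepupae, per the labels. The optimal, pooled and replicate peak lists on dm6 hold a signal value per peak as deposited by the authors, with a scale that is not stated and differs between lists. Names of the aligner and peak caller were not given in the sources used here. With no read counts the depth is unknown. Lists on dm3 were not used here. Replicate lists shared at most 1 identical interval and were counted as separate samples, and whether pooled animals overlap is not stated.

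Hairpins were genes with a transcript of class pre_miRNA in the Ensembl release 115 annotation, where their gene class is ncRNA. Distances ran from summits to the nearest hairpin base, on Python 3.11.15 with numpy 2.4.6, pandas 2.3.3 and matplotlib 3.10.9, and the counting was tested on simulated data. Sequences were read from RefSeq dm6.

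Named loci were those within 1000 bp of a summit (12 with all values), the ecdysone list, the 2 nearest of each other list, and the 3 farthest, largest and edge loci. Members, lists and rules were chosen with earlier results of these data known. Host starts were added after seeing the data. Alternatives were the pooled list, the 500 strongest peaks, peaks in all replicates, other windows and merging distances, and another scaling. Each replicate was also set aside in turn, for counts by keeping optimal peaks found in both other replicates.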

Additional observations from a re-analysis of the deposited data

How the results depend on the processing

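Of 61 alternative values over 8 results, 44 stayed within 1.5 times the main count or within 1 SD, and 17 moved. With the 500 strongest peaks, hairpins fell to 0 within 1000 bp and 11 within 5000 bp, loci to 0 and 10, pathway genes to 0, coding hosts to 5 and noncoding hosts to 3. All coding genes fell to 2.98% there, so coding hosts at 3.91% and noncoding hosts at 8.11% rest on few genes. With the pooled list the same counts were 85, 203, 74, 161, 12, 83 and 26, with 47.9% of all coding genes. A window of 500 bp left 7 hairpins and 7 loci. Division by the median of the 2000 best peaks made the median relative signal 0.573, because that median is higher. Requiring a peak in every replicate left 12 hairpins and 11 loci within 1000 bp.

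Leaving out each replicate gave 12 to 13 hairpins and 11 to 12 loci within 1000 bp, 60 to 64 hairpins and 49 to 53 loci within 5000 bp, 6 pathway genes, 27 to 30 coding hosts and 9 noncoding hosts, and a relative signal from 0.906 to 1.07. No paired analysis was possible because there was 1 group. Read depth, which is unknown, limits which weak peaks could be listed, and the start of a primary transcript is only as good as its annotation.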
